A study of Mus musculus with 12 samples.

Results

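The promoters of the cytosolic ribosomal protein genes were followed in a chromatin accessibility count table of mouse germinal center B cells labelled Pbrm1-/- or Pbrm1+/+. Members were all autosomal peaks whose midpoint lay within 1 kb of either end of a protein-coding RefSeq gene with an Rpl or Rps symbol followed by a number, plus Rpsa, Rplp0, Rplp1 and Rplp2, and without the Rps6k kinases. The rule used symbols and positions and no measured value. It matched 91 genes, of which 4 lie on the X chromosome and were left out, and 73 of the remaining 87 genes had at least 1 peak. This gave 121 peaks on 18 chromosomes, of 68689 in the count table, where 67159 are autosomal. In all, 34 genes had 1 peak, 31 had 2, 7 had 3 and Rps19 had 4. Sorted by symbol alone, peaks at genes of the large subunit numbered 71, at genes of the small subunit 45 (2 of them at Rps19bp1), and at the stalk genes Rplp0, Rplp1 and Rplp2 5. No peak met the rule at the other 14 genes (Rpl10a, Rpl10l, Rpl17, Rpl31-ps12, Rpl32l, Rpl37rt, Rpl39l, Rps2, Rps10, Rps18, Rps23rg1, Rps27l, Rps27rt and Rps28), which are not analysed here. The rule goes by symbol, so it also took in the paralogs Rpl7l1, Rpl22l1, Rpl36al and Rpl3l, Rpl34-ps1, whose symbol has the form of a pseudogene's, and Rps19bp1, which encodes a binding partner of Rps19 and not a ribosomal protein.

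The source was spleen of C57BL/6 animals at 8 to 10 weeks of age. The groups were HOMO CB (Pbrm1-/-), WT CB (Pbrm1+/+), HOMO CC (Pbrm1-/-) and WT CC (Pbrm1+/+), with 3 libraries each and 12 in all. The sources used here do not spell out CB and CC, do not say how the Pbrm1 allele was made, and do not say whether libraries of a group came from separate mice, so every p-value here reflects library-to-library spread, which may be technical. The design text speaks of a knockout, while count columns of both genotypes begin with Pbrm1AID, a prefix whose meaning is not stated. Accessibility was measured by Omni-ATAC, in which the Tn5 transposase cuts and tags DNA that is not covered by nucleosomes. Values are CPM (library-scaled peak counts) after trimmed mean of M-values (TMM) scaling, in peaks of 501 bp throughout, so levels can be compared between genes per length.

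Ribosomal proteins join ribosomal RNA in the large and small ribosomal subunits, and their genes are transcribed at high rates in growing cells. Their promoters are short, GC-rich and usually free of nucleosomes around the start site, and their messages begin with a run of pyrimidines through which growth signals control translation. Germinal center B cells divide fast and depend on ribosome supply. Pbrm1 (polybromo, BAF180) is a bromodomain subunit particular to PBAF, a form of the SWI/SNF complex that slides or evicts nucleosomes.

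The sequences around the start are shown for the 9 genes of the reference whose peaks passed the test below in a comparison of HOMO with WT. Each runs 5′ to 3′ on the gene's own strand, from 70 bases before the RefSeq start to 30 bases after it, in build GRCm38.p6. Capitals mark CGGAAG (or CTTCCG, the same word on the other strand), TCTCGCGA (or TCGCGAGA), and CTTTC on the sense strand from 10 bases before to 15 bases after the start. CGGAAG is the core that ETS factors such as GABP are known to bind, and CTTTC is the kind of pyrimidine run at which these messages start.
Rpl35a at chr16:33056383-33056482 (+): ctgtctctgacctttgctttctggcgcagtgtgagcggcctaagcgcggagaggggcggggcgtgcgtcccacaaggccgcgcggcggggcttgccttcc
Rplp0 at chr5:115559397-115559496 (+): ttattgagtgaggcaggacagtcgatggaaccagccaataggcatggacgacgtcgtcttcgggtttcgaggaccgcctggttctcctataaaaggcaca
Rpl5 at chr5:107900458-107900557 (+): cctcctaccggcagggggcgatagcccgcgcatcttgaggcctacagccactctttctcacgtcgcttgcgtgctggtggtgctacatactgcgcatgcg
Rpl31 at chr1:39367781-39367880 (+): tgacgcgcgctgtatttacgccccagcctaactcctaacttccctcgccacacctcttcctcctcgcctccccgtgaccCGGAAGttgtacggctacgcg
Rpl36al at chr12:69184038-69184137 (-): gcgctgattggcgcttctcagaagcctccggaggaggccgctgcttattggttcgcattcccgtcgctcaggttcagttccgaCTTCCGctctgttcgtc
Rps21 at chr2:180257309-180257408 (+): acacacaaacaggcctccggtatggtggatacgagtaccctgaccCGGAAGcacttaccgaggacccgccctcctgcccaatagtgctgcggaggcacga
Rps23 at chr13:90923052-90923151 (+): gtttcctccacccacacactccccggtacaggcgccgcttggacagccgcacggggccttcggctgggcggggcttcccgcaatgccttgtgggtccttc
Rps26 at chr10:128626477-128626576 (-): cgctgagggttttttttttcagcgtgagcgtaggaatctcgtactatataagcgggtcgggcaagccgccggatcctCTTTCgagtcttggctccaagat
Rps3a1 at chr3:86142639-86142738 (-): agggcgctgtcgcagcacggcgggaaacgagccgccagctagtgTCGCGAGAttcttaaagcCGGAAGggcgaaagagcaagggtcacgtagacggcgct

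Rpl8, at which a peak also passed the test, is not in the sequence table. Over the 300 bases given per gene (250 before and 50 after the start), CGGAAG was present on either strand in 35 of 53 ribosomal protein genes with an entry (66.0%), against 23.8% of 16404 other autosomal genes and 37.7% of the 7642 other genes with a peak over the start. TCTCGCGA was present in 9 of 53 (17.0%), against 1.48% and 2.58%. ATGGCG, a word bound by YY1, was present in 16 of 53 (30.2%), against 12.6% and 18.5%. TATAAA was present in 3 of 53 (5.66%), against 15.04% and 7.86%. CTTTC in its window near the start was present in 13 of 53 (24.5%), against 3.46% and 3.43%. ATGGCG and CGGAAG can overlap by the letters CG. The words were picked after the sequences had been seen, and a match describes the letters only.

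Total counts ran from 6431354 (HOMO CC 1) to 45590454 (HOMO CB 3) per library. Gene-end peaks of all genes held 43.3 to 44.9% of counts in HOMO CB against 44.7 to 47.6% in WT CB, and 42.6 to 43.7% in HOMO CC against 43.97 to 46.0% in WT CC. At Pbrm1 itself the peak next to the start held 26.5, 29.7 and 36.0 CPM in HOMO CB against 29.0, 26.5 and 39.3 CPM in WT CB, so its level does not check the genotype labels. A Pbrm1 peak at -507 bp held 8.25, 8.22 and 7.175 CPM in HOMO CB against 9.61, 9.51 and 10.15 CPM in WT CB. Its log2 fold change was -0.32 in CB and -0.30 in CC, without overlap in either (edgeR adjusted p = 0.265 and 0.350). A peak inside the gene went the other way (0.67 and 0.63), and no Pbrm1 peak was called. The peaks at the 5 listed B cell genes summed to 349 to 360 CPM in HOMO CB against 319 to 331 CPM in WT CB, and to 314 to 381 CPM in HOMO CC against 299 to 309 CPM in WT CC. Those at the 5 germinal center genes summed to 221 to 253 CPM in HOMO CB against 206 to 241 CPM in WT CB, and to 229 to 243 CPM in HOMO CC against 195 to 225 CPM in WT CC. Only 2 of 8 T cell genes had a gene-end peak (Cd3d and Cd4, not Cd3e, Cd3g, Cd8a, Cd2, Lck or Themis), with 21.1 to 23.8 CPM in HOMO CB against 26.8 to 31.0 CPM in WT CB and 24.2 to 26.4 CPM in HOMO CC against 29.2 to 30.9 CPM in WT CC. None of the 4 natural killer genes had one. The 2 of 5 myeloid genes with a peak (not Csf1r, Itgam or Lyz2) summed to 19.7 to 25.8 CPM in HOMO CB against 26.0 to 29.7 CPM in WT CB, and to 18.0 to 23.6 CPM in HOMO CC against 23.1 to 28.2 CPM in WT CC. The 2 of 3 erythroid genes with a peak (not Epor) summed to 8.84 to 10.2 CPM in HOMO CB against 11.45 to 16.3 CPM in WT CB, and to 7.82 to 8.72 CPM in HOMO CC against 10.6 to 11.97 CPM in WT CC. Plasma cell genes, all 4 with peaks, summed to 158 to 173 CPM in HOMO CB against 176 to 178 CPM in WT CB, and to 148 to 156 CPM in HOMO CC against 160 to 166 CPM in WT CC. The part of these differences in the results below was not tested.

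The members are open sites by how they were picked, since only peaks could meet the rule. Their mean level over 12 libraries had a median of 25.8 CPM (range 2.09 to 98.3), against 22.0 CPM at the ends of other genes and 7.79 CPM over all peaks. The reference gives a start for 53 of the 73 genes. For 49 of them the midpoint of a member peak lay within 1 kb of it, the nearest being a median of 60 bp away and within 150 bp in 38. At Rpl18, Rpl19, Rpl22 and Rpl3l the nearest given start lies over 1 kb inside the gene span. A peak over that start could not meet the rule. Placed against the start of their own gene, 45 peaks lay over it (midpoint within 250 bp), 11 lay downstream at up to 1 kb, and 13 upstream at up to 1 kb. A further 19 lay farther off and are called far-end peaks. Those of Rpl18 and Rpl19 lie upstream of the nearest given start, at -2808 and -4152 bp, and the rest near the other end of the gene. The other 33 peaks belong to genes without a start in the reference. Peaks of other genes were placed against the nearest start of any gene, which can class a peak near more than 1 gene differently. Peaks over the start had a median of 36.4 CPM, against 32.5 CPM at other genes. Downstream peaks had a median of 15.4 CPM (15.6 at other genes), upstream peaks 15.3 CPM (17.5 at other genes), and the far-end class 11.99 CPM. By subunit as sorted by symbol, the start peaks had medians of 36.4 CPM for the large subunit (27 peaks) and 33.9 CPM for the small subunit (17 peaks, Rps19bp1 included).

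**Figure D1:**
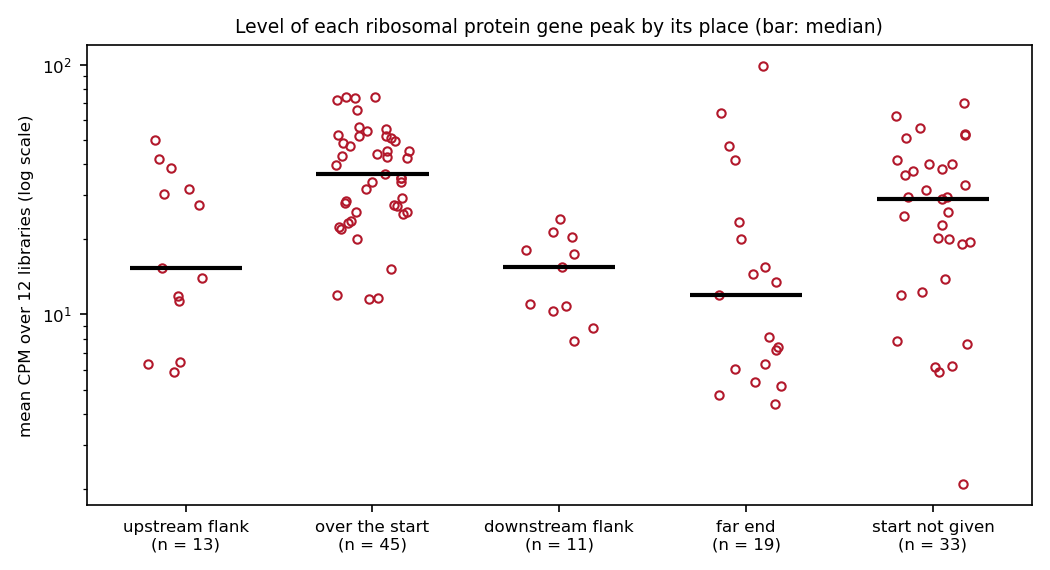
Mean CPM over 12 libraries on a log scale for each of the 121 peaks (circles), by place relative to the RefSeq start; bars are medians. Peaks over the start sit highest, with a median of 36.4 CPM, and downstream peaks lie between 7.80 and 24.0 CPM.

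The most accessible member was the peak near the far end of Rpl41, which encodes the smallest protein of the large subunit, at a mean of 98.3 CPM. It lies equally within 1 kb of Zc3h10, a neighbour, and cannot be given to either gene. The start peaks of Rpl13a (74.5 CPM, a large-subunit protein also known for translational silencing), Rps21 (73.9 CPM), Rpl37 (73.2 CPM, shared with Card6) and Rpl36al (71.8 CPM, shared with Mgat2) followed. Neighbours among these 4 differ by less than the SD between libraries of a group at any of them (2.00 to 7.95 CPM), so their order is not resolved. The lowest were Rpl34-ps1 (2.09 CPM) and peaks near the far ends of Rpl26 (4.39 CPM), Rplp0 (4.76 CPM, shared with Gcn1), Rpl7l1 (5.18 CPM) and Rpl23 (5.34 CPM). In all, 28 of the 121 peaks also lay within 1 kb of another protein-coding gene. The sources used here do not give how reads that also match the many processed pseudogenes of this family were handled.

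As a share of all peak counts, the 121 peaks held 0.355, 0.348 and 0.342% in HOMO CB against 0.356, 0.360 and 0.379% in WT CB. The means were 0.348 ± 0.00670% in HOMO CB and 0.365 ± 0.0122% in WT CB (SD, n = 3 each), and the groups did not overlap, with HOMO CB 1 and WT CB 1 nearly level. In CC the shares were 0.360, 0.351 and 0.345% in HOMO CC against 0.361, 0.360 and 0.373% in WT CC, with means of 0.352 ± 0.00759% and 0.365 ± 0.00754% (SD, n = 3 each) and an overlap at the margin only. With 3 libraries against 3, an exact permutation test cannot reach a p of 0.05, so none is given. As a share of gene-end counts alone, the means were 0.792% in HOMO CB against 0.8004% in WT CB, and 0.815% in HOMO CC against 0.816% in WT CC.

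The first comparison asks how these promoters in CB differed between Pbrm1-/- and Pbrm1+/+. Accessibility fell at 8 of the 121 peaks and rose at none, in edgeR's quasi-likelihood test with Benjamini-Hochberg adjustment over all peaks. Over all peaks 4.63% were called, 3.85% lower and 0.779% higher, and over all gene-end peaks 9.17% were called lower, so 8 of 121 is no larger a share than that of gene ends in general. At an unadjusted p under 0.05, 29 peaks were lower and 1 was higher. The 8 were peaks downstream of the start at Rpl35a, Rplp0, Rps23, Rps3a1 and Rpl5, 1 upstream of Rps21, 1 at Rps26 and 1 at Rpl8. The median log2 fold change of the 121 peaks was -0.12, with 88 below 0, against -0.11 for all gene-end peaks and 0.01 for all peaks; with TMM computed on gene-end peaks alone, which moves the median of all peaks to 0.12, it was 0.00 and 3 peaks were called, all lower, where 1.68% of all peaks and 3.91% of gene ends were. Those 3 were at Rpl35a, Rplp0 and Rps21, and the calls at Rps3a1, Rps23, Rpl5, Rpl8 and Rps26 ended (edgeR adjusted p of 0.0512, 0.0568, 0.0704, 0.0948 and 0.121).

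Rpl35a encodes a large-subunit protein whose loss causes Diamond-Blackfan anemia in humans. Its downstream peak (chr16:33056759-33057259, midpoint 495 bp past the start, also within 1 kb of Iqcg) held 7.34, 5.37 and 6.03 CPM in HOMO CB against 11.9, 12.4 and 12.1 CPM in WT CB. Every HOMO CB library was well below every WT CB library, with a log2 fold change of -0.99 ± 0.17 (SE; edgeR adjusted p = 0.00383). The peak over its start held 19.4, 19.4 and 18.5 CPM in HOMO CB against 22.7, 18.0 and 25.1 CPM in WT CB, where the groups overlapped and the log2 fold change was -0.22 (edgeR adjusted p = 0.385).

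Rplp0 encodes the protein at the base of the ribosomal stalk, where elongation factors dock. Its downstream peak (chr5:115559642-115560142, 425 bp past the start) held 14.2, 11.5 and 11.1 CPM in HOMO CB against 20.7, 18.0 and 20.4 CPM in WT CB. The groups stood apart, with a log2 fold change of -0.72 ± 0.14 (SE; edgeR adjusted p = 0.00808). Over its start the means were 50.7 ± 2.02 CPM in HOMO CB and 54.1 ± 2.66 CPM in WT CB (SD, n = 3 each), with a log2 fold change of -0.09 (edgeR adjusted p = 0.605).

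Rpl5 carries ribosomal RNA to the large subunit together with Rpl11 and can bind Mdm2, the regulator of p53. Its downstream peak (chr5:107900896-107901396, 618 bp past the start) held 15.3, 14.4 and 13.0 CPM in HOMO CB against 23.3, 17.6 and 21.9 CPM in WT CB (log2 fold change -0.58, edgeR adjusted p = 0.0213), again without overlap. Over its start the means were 21.7 ± 1.55 CPM in HOMO CB and 22.1 ± 2.54 CPM in WT CB (SD, n = 3 each; log2 fold change -0.03). The downstream peak lay below the start peak in each HOMO CB library, and on either side of it in WT CB libraries.

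Among small-subunit genes, Rps23 encodes a protein of the decoding centre. Its peak downstream of the start (chr13:90923161-90923661, 289 bp past it) held 20.7, 19.5 and 19.6 CPM in HOMO CB against 27.2, 25.7 and 31.9 CPM in WT CB (log2 fold change -0.52, edgeR adjusted p = 0.0184). At Rps3a1, whose protein lies near the messenger RNA exit, the peak at chr3:86141749-86142249 (669 bp past the start) held 7.73, 5.70 and 4.71 CPM in HOMO CB against 10.3, 9.74 and 11.5 CPM in WT CB (log2 fold change -0.87, edgeR adjusted p = 0.0205). Neither pair of groups overlapped.

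Rps26 encodes a protein of the messenger RNA exit channel and is also mutated in Diamond-Blackfan anemia. Its called peak (chr10:128626023-128626523) was counted as over the start, with a midpoint 233 bp past it, close to the limit of 250 bp. It held 8.38, 10.6 and 9.33 CPM in HOMO CB against 14.3, 12.5 and 14.8 CPM in WT CB (log2 fold change -0.54, edgeR adjusted p = 0.0412). It was the only 1 of the 45 peaks over a start that was called in either population.

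The called upstream peak belongs to Rps21, a small-subunit protein gene. Its midpoint lies 999 bp before the RefSeq start, barely inside the limit of the rule (chr2:180256130-180256630). It held 10.9, 8.87 and 10.5 CPM in HOMO CB against 16.5, 17.1 and 15.5 CPM in WT CB, with no overlap and a log2 fold change of -0.71 ± 0.15 (SE; edgeR adjusted p = 0.00923). At Rpl8, whose protein lies close to the peptidyl transferase centre and whose start is not in the reference, the peak at chr15:76904427-76904927 held 10.2, 9.22 and 9.01 CPM in HOMO CB against 15.7, 15.7 and 14.3 CPM in WT CB (log2 fold change -0.69, edgeR adjusted p = 0.0393).

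The number of calls in CB rested on single libraries: it was 0 without HOMO CB 2, 2 without HOMO CB 3, 1 without WT CB 1 and 3 without WT CB 3, and up to 12 when another was left out. The Rpl35a peak lost its call in 1 of 12 such refits (without HOMO CB 2, edgeR adjusted p = 0.0536), the Rps21 peak in 2 (highest 0.0945, without the same library) and the Rplp0 peak in 3 (highest 0.0767), while the peaks of Rps3a1, Rpl5 and Rps23 kept it in 8 of 12 each, that of Rpl8 in 5 and that of Rps26 in 3. Those 12 refits include the ones without a CC library, which is in neither group compared here, and these left 6 to 11 calls. Without HOMO CB 2, 0.496% of all peaks were called. All 8 fold changes stayed below 0 in each of the 12 refits, the smallest being -0.42 at Rps23.

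**Figure D2:**
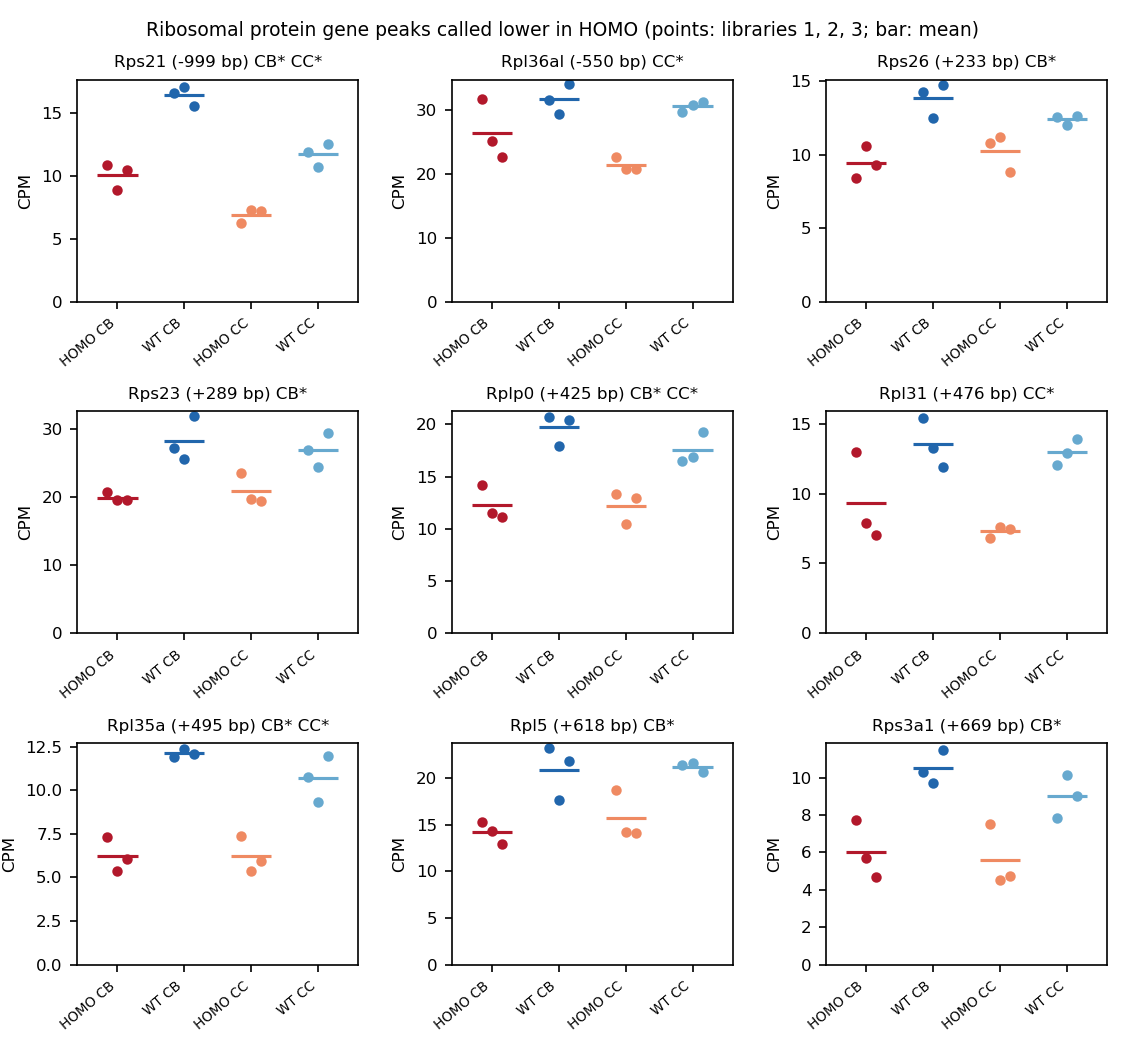
CPM in each library at the 9 peaks called in HOMO against WT at genes with a RefSeq start, by group, with the mean as a bar; the distance of the midpoint from the RefSeq start stands in the titles, and a star marks the population in which the peak was called. At Rpl35a the HOMO CB libraries lie between 5.37 and 7.34 CPM and the WT CB libraries between 11.9 and 12.4 CPM.

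In CC, accessibility fell at 6 of the 121 peaks and rose at none, by the same edgeR test. Over all peaks 2.75% were called in this comparison, 2.17% lower and 0.578% higher, and over all gene-end peaks 5.58% were called lower, close to the share of 6 in 121. At an unadjusted p under 0.05, 20 peaks were lower and 3 higher. The median log2 fold change was -0.06 with 78 peaks below 0, against -0.07 for all gene-end peaks and 0.02 for all peaks; with TMM on gene-end peaks, which moves the median of all peaks to 0.10, it was 0.01 and 5 peaks were called, all lower, where 1.13% of all peaks and 2.88% of gene ends were. The peaks of Rps21, Rpl35a and Rplp0 were called again, and peaks at Rpl31 and Rpl36al were among the others.

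The Rpl35a peak held 7.39, 5.36 and 5.94 CPM in HOMO CC against 10.8, 9.33 and 12 CPM in WT CC (log2 fold change -0.83, edgeR adjusted p = 0.0171). The Rplp0 peak held 13.3, 10.4 and 12.9 CPM in HOMO CC against 16.5, 16.9 and 19.3 CPM in WT CC (log2 fold change -0.54, edgeR adjusted p = 0.0455). With TMM on gene-end peaks this call ended (edgeR adjusted p = 0.0813). The Rps21 peak held 6.21, 7.26 and 7.16 CPM in HOMO CC against 11.9, 10.7 and 12.5 CPM in WT CC (log2 fold change -0.75, edgeR adjusted p = 0.0136). None of these groups overlapped.

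Rpl31 encodes a protein at the rim of the peptide exit tunnel. Its downstream peak (chr1:39368077-39368577, 476 bp past the start) held 6.80, 7.63 and 7.48 CPM in HOMO CC against 12.03, 12.94 and 13.96 CPM in WT CC (log2 fold change -0.82 ± 0.19, SE; edgeR adjusted p = 0.0257). In CB the same peak held 13.0, 7.92 and 7.04 CPM in HOMO CB against 15.5, 13.3 and 11.9 CPM in WT CB, where HOMO CB 1 lay among the WT CB libraries and the call was missed (log2 fold change -0.61, edgeR adjusted p = 0.0662). Over the Rpl31 start the log2 fold change was -0.04 in CC.

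Rpl36al, an expressed paralog of Rpl36a, is read away from Mgat2, and the called peak (chr12:69184367-69184867, 550 bp upstream) lies within 1 kb of both. It held 22.6, 20.7 and 20.7 CPM in HOMO CC against 29.7, 30.8 and 31.3 CPM in WT CC (log2 fold change -0.53, edgeR adjusted p = 0.0234).

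The count in CC was 0 without HOMO CC 2, without HOMO CC 3 or without WT CC 1, 2 without WT CC 2 or WT CC 3, and 13 without HOMO CC 1, the library with the fewest counts. Over all peaks 0.0247% were called without HOMO CC 2, and 4.97% without HOMO CC 1. Refits without a CB library, which is in neither group compared here, left 5 to 9 calls and are counted among the 12 below. Of 12 refits that left out 1 library, the Rps21 peak kept its CC call in 9, the Rpl35a peak in 8, those of Rpl36al and Rpl31 in 7 each and that of Rplp0 in 3, and without HOMO CC 2 their edgeR adjusted p were 0.0992, 0.160, 0.162, 0.145 and 0.299. The 3 peaks called in both populations were 37.5% of the CB calls and 50% of the CC calls, against 46.6% and 76.5% of the calls lower at all gene ends and 41.1% and 72.8% of those over all peaks. In all, 11 peaks were called in either. All 11 had fold changes below 0 in both populations, where the call itself fixed the sign in at least 1 of them. Of the 121 peaks 76 were below 0 in both. Among all 16106 gene-end peaks, 11094 were below 0 in CB and 9964 in CC, and those below 0 in both were not counted.

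The called peaks were unevenly placed relative to the start of their own gene. Of the 11 called in either population, 6 lay downstream of the start, 2 upstream, 1 over it and 2 at genes without a given start. All 11 downstream peaks had fold changes below 0 in CB (median log2 fold change -0.60, range -0.99 to -0.22, 5 called lower) and in CC (median -0.54, range -0.83 to -0.22, 3 called lower). The 45 peaks over the start had medians of -0.12 in CB (36 below 0, 1 called lower) and -0.05 in CC (30 below 0, none called at an adjusted p under 0.05, with 1 lower at an unadjusted p under 0.05). Upstream peaks had medians of -0.08 and -0.07, and the far-end class, with the Rpl18 and Rpl19 peaks, -0.01 and -0.01. These classes were formed after the values had been seen.

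The same order was present at other genes, whose peaks were placed against the nearest start of any gene. Their downstream peaks had a median log2 fold change of -0.30 in CB and -0.28 in CC, and peaks over the start -0.09 and -0.04. Of these 3759 downstream peaks, 3173 were below 0 in CB and 3111 in CC. Over the full set of downstream peaks by that rule, 20.0% were called lower in CB and 13.7% in CC, and of all peaks over a start, 6.93% and 3.54%. That full set held 3773 downstream peaks (518 called lower in CC), and 3759 (514) without the family. The nearest-start rule thus places more family peaks, and more of their CC calls, downstream than the own-gene rule. At equal level, between log2 CPM of 3 and 4, the medians in CB were -0.62 for the 5 downstream peaks of ribosomal protein genes and -0.44 for 1105 downstream peaks of other genes, and between 4 and 5 they were -0.37 for 5 peaks and -0.24 for 1221 peaks. The difference between the family and other genes was not tested.

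**Figure D3:**
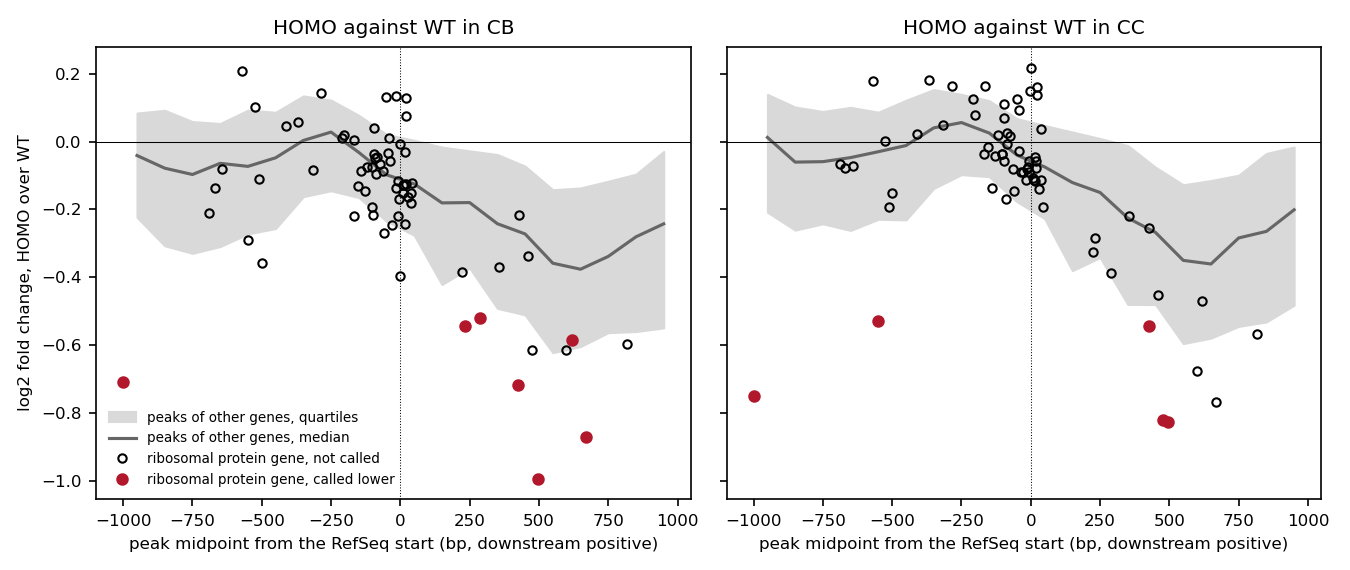
Log2 fold change of HOMO over WT against the distance of the peak midpoint from the RefSeq start in CB and CC. Circles are ribosomal protein gene peaks (filled where called lower), placed against their own gene's start. The line and band are the median and quartiles of other genes' peaks in steps of 100 bp, placed against the nearest start of any gene. Between 500 and 600 bp past the start the median of other genes was -0.36 in CB and -0.35 in CC.

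Within a gene, the downstream peak can be set against the peak over the start of the same gene in the same library, which removes what the whole promoter shares. This could be done for 10 genes of the family (Rpl5, Rpl7a, Rpl22l1, Rpl31, Rpl34, Rpl35, Rpl35a, Rpl38, Rplp0 and Rps3a1), of which the downstream peak of Rpl38 lies over 1 kb from both gene ends and is no member. The median level of the downstream peak, as a percentage of the start peak, was 34.9, 26.9 and 29.2% in HOMO CB against 45.0, 40.7 and 40.4% in WT CB. It was 24.99, 23.1 and 27.7% in HOMO CC against 38.6, 39.4 and 45.6% in WT CC. In each population all 3 HOMO libraries lay below all 3 WT libraries. The same medians were not computed for other genes. There the downstream peak was also lower relative to the start in HOMO at 82.3% of 2647 pairs in CB and 83.7% in CC.

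Tested with limma on the log2 difference between the 2 peaks, over all 3916 such pairs of the table, the downstream peak fell relative to the start in HOMO CB at 4 of the 10 genes and in HOMO CC at 4. Over all downstream pairs, 16.2% were called lower in CB and 18.9% in CC, and of all pairs in either direction from the start, 12.4% and 13.9% were called lower and 1.48% and 1.71% higher. In CB the genes were Rpl35a (log2 difference -0.77, limma adjusted p = 0.0171), Rplp0 (-0.59, 0.0201), Rpl5 (-0.53, 0.0315) and Rps3a1 (-0.69, 0.0375). In CC they were Rpl31 (-0.79, limma adjusted p = 0.0113), Rpl35a (-0.73, 0.0179), Rplp0 (-0.56, 0.0227) and Rpl22l1 (-0.43, 0.0362).

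All 10 differences were below 0 in each population, with medians of -0.46 in CB and -0.49 in CC, against -0.26 and -0.28 at other genes, where 82.3% and 83.7% of 2647 pairs were below 0. The smallest in CB were at Rpl7a (-0.14, limma adjusted p = 0.633) and Rpl38 (-0.16, 0.418). The 10 pairs with an upstream peak had medians of 0.01 in CB and -0.08 in CC. Of these, Rps21 was called lower in CB (-0.57, limma adjusted p = 0.0236) and CC (-0.74, 0.00791), and Rps26 higher in CB (0.46, 0.0183), where the fall was in its start peak. Counts of called pairs in CB were 0 without HOMO CB 2 or WT CB 1, 2 without HOMO CB 3 and 3 without WT CB 2, against 6 with all libraries, and in CC they ran from 2 (without HOMO CC 2 or WT CC 3) and 3 (without WT CC 1 or WT CC 2) to 8 (without HOMO CC 1), against 5. This test was added after the values had been seen.

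**Figure D4:**
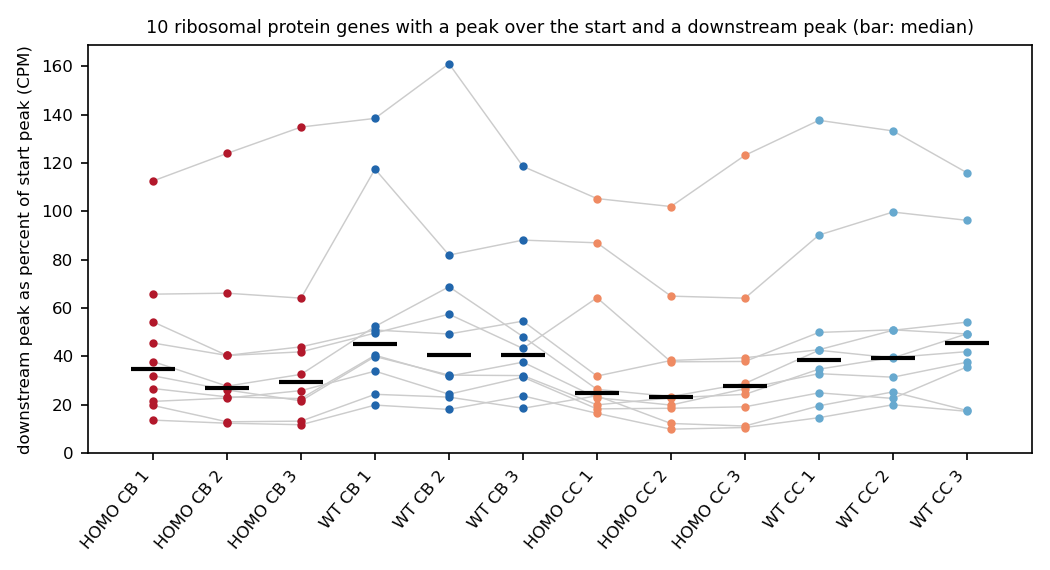
Level of the downstream peak as a percentage of the peak over the start of the same gene, in CPM, for 10 ribosomal protein genes (points joined by gene) in 12 libraries; bars are medians. The medians lie between 23.1 and 34.9% in the 6 HOMO libraries and between 38.6 and 45.6% in the 6 WT libraries. Other genes are not shown.

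By level, the ribosomal protein peaks had no steady order at the low end. Those with a mean log2 CPM between 2 and 3 had a median log2 fold change of -0.12 in CB (17 peaks, 1 called), those between 3 and 4 one of -0.36 (21 peaks, 5 called), those between 4 and 5 one of -0.13 (35 peaks, 2 called), those between 5 and 6 one of -0.09 (39 peaks, 0 called), and the 8 peaks above 6 one of 0.01 (0 called). Other gene ends had medians of -0.30, -0.28, -0.15, -0.05 and 0.02 in the same ranges, with 17.3, 18.9, 9.67, 2.38 and 0.247% called lower. In CC the family's medians were -0.14, -0.15, -0.11, -0.03 and 0.10. When each gene was represented by its highest peak alone, none of the 73 was called in either population.

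**Figure D5:**
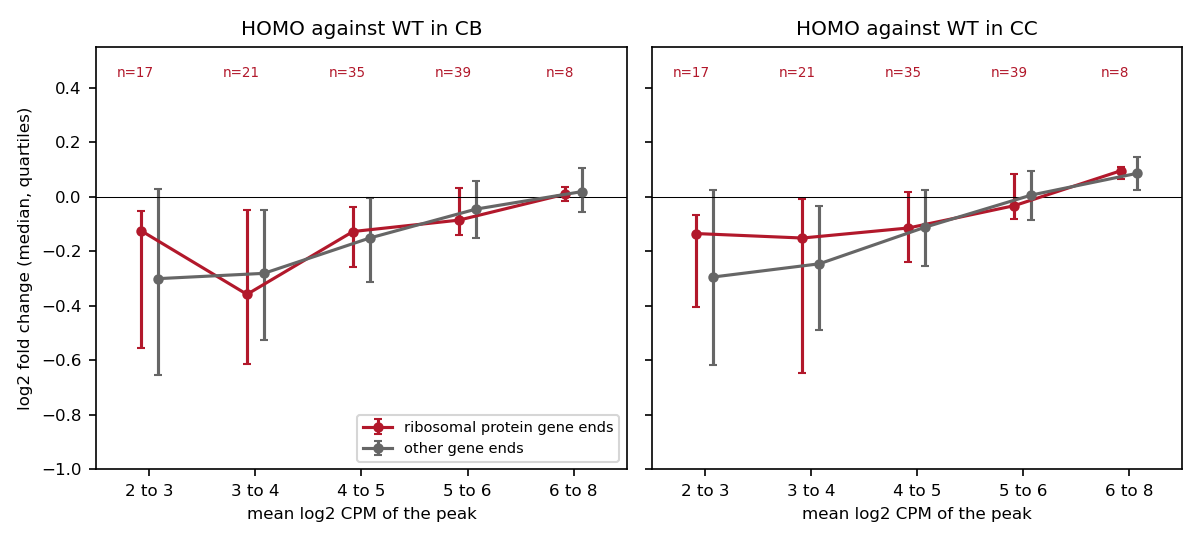
Median and quartiles of the log2 fold change of HOMO over WT by mean log2 CPM of the peak, for ribosomal protein gene ends and other gene ends, in CB and CC; n is the number of ribosomal protein peaks. In CB the medians are lowest between 3 and 4 for ribosomal protein genes (-0.36) and between 2 and 3 for other genes (-0.30), and near 0 above 6 in both.

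Of the stronger start peaks of the family, none was called in CB. At a mean log2 CPM between 5 and 6, 18 of 22 were below 0, against 1972 of 3022 start peaks of other genes at that level. The median log2 fold changes were -0.12 and -0.06. The 5 above 6 had a median of 0.01, as had other genes' start peaks of that level. The start peak of Rpl13a held 77.9, 73.0 and 71.7 CPM in HOMO CB against 71.2, 73.9 and 75.6 CPM in WT CB (log2 fold change 0.01, edgeR adjusted p = 0.964). That of Rps19, the gene most often mutated in Diamond-Blackfan anemia, held 52.1, 59.8 and 60.9 CPM in HOMO CB against 45.2, 44.1 and 68.1 CPM in WT CB (log2 fold change 0.13), where the WT CB libraries alone spanned the whole range. That of Rps6, the target of the S6 kinases, held 43.4, 39.8 and 42.8 CPM in HOMO CB against 48.7, 49.7 and 50.3 CPM in WT CB. These Rps6 libraries did not overlap, but the change missed the threshold (log2 fold change -0.24, edgeR adjusted p = 0.119), and in CC it was -0.08.

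Start peaks of Rpsa, Rps27, Rpl11 and Rpl22l1 had log2 fold changes between -0.15 and -0.07 in CB and between -0.08 and -0.04 in CC, none called by edgeR. The stalk genes Rplp1 and Rplp2 had -0.18 and 0.04 in CB at their highest peaks. The highest peak of Rpl3 had 0.04 in CB and 0.21 in CC. Rpl22, a large-subunit protein with known roles in lymphocyte development, had its only member peak near the far end of the gene (log2 fold change 0.33 in CB, edgeR adjusted p = 0.361). Rpl3l, a muscle paralog, had its highest member peak near the neighbour Msrb1 (0.06). At both genes a peak over the nearest given start could not meet the rule. On the higher side, small p-values in CB belonged to Rpl34-ps1 (log2 fold change 0.76, edgeR adjusted p = 0.252, at only 1.44, 3.34 and 2.74 CPM in HOMO CB against 1.37, 1.83 and 1.63 CPM in WT CB) and a far-end peak of Rps9 (0.34, 0.283). In CC they belonged to a far-end peak of Rps19 (0.35, edgeR adjusted p = 0.147), a peak of Rps20 (0.22, 0.217) and the peak of Rpl3 named above (0.237).

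Whether the effect of the genotype differed between CC and CB was tested as an interaction. None of the 121 peaks was called by edgeR, nor was any peak of the table (0.0%), and at an unadjusted p under 0.05 there was 1. DESeq2 also called none. That peak lies over the start of Rpl24, a large-subunit protein of the subunit interface, with 14.2, 13.2 and 10.5 CPM in HOMO CC against 9.78, 9.09 and 12.9 CPM in WT CC, and 7.86, 11.6 and 10.4 CPM in HOMO CB against 14.3, 13.3 and 12.7 CPM in WT CB. The difference of the log2 fold changes was 0.61 (edgeR adjusted p = 1). The next by p on that side were Rps20 (0.19) and Rps3 (0.19), and on the other Rpl36al (-0.24), Rpl7l1 (-0.25) and Rpl26 (-0.36). Over all 121 peaks the median difference was 0.06, against 0.04 for all gene-end peaks and 0.03 for all peaks. With TMM on gene-end peaks it was 0.02 for the 121.

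Between the populations these promoters differed little. In HOMO, 1 of 121 peaks was called lower in CC than in CB by edgeR and none higher, where 7.22% of all peaks were called (2.44% lower) and 0.851% of gene ends were called lower. It was the upstream peak of Rps21, with 6.21, 7.26 and 7.16 CPM in HOMO CC against 10.9, 8.87 and 10.5 CPM in HOMO CB (log2 fold change -0.52, edgeR adjusted p = 0.0403). It lost the call in 7 of 12 refits that left out 1 library, with an edgeR adjusted p of up to 0.156 (without HOMO CB 3). The 12 include refits without a WT library, which is in neither group of that comparison. In WT none was called by edgeR, where 5.43% of all peaks were, with 6 lower and 0 higher at an unadjusted p under 0.05, and DESeq2 called 1. The same Rps21 peak held 11.9, 10.7 and 12.5 CPM in WT CC against 16.5, 17.1 and 15.5 CPM in WT CB, without overlap (log2 fold change -0.48, edgeR adjusted p = 0.0574).

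Libraries of a genotype that share a number deviated together, so CC and CB were also compared with each replicate number within a genotype as a block. The labels do not say what a shared number marks. With the block, 8 of the 121 peaks were called in HOMO (2 higher, 6 lower), where 22.2% of all peaks were, and 11 in WT, all lower, where 22.1% were. The Rps21 peak was called in both (edgeR adjusted p = 0.00239 in HOMO and 0.00256 in WT). In HOMO, the start peaks of Rps3, a small-subunit protein that also acts in DNA repair (log2 fold change 0.20, edgeR adjusted p = 0.0270), and Rpl35a (0.27, 0.0238) were higher in CC with the block, and the far-end peak of Rpl26 (-0.51, 0.0419) was lower. In WT, Rps20 (-0.21, edgeR adjusted p = 0.0210) and Rpl3 (-0.21, 0.0270) were lower in CC with the block, and Rps9 (0.30, 0.0654), the second peak of Rpl3 (0.25, 0.276) and Rpl7l1 (0.17, 0.137) missed it. Rps26 missed it in HOMO (0.19, 0.0613).

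Other genes of the translation machinery were read at their ends in the same way, with the edgeR calls in HOMO against WT. Of 97 peaks at 71 mitochondrial ribosomal protein genes, 12 were lower in CB and 6 in CC, with median log2 fold changes of -0.17 and -0.10. Of 94 peaks at 57 ribosome biogenesis genes, 14 were lower in CB and 7 in CC (medians -0.13 and -0.09), and of 72 peaks at 38 translation factor genes, 8 and 7 were lower (medians -0.09 and -0.05). All calls in these lists were lower. The 16 ribosomal protein genes of the Diamond-Blackfan anemia list, all members, had 26 peaks, of which 3 were lower in CB and 2 in CC. Against the 9.17% and 5.58% of all gene ends called lower, these counts are of the same order.

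Peaks past the nearest RefSeq start were among those that fell. Noc4l, a factor of small-subunit assembly, held 8.25, 8.73 and 8.74 CPM in HOMO CB against 16.9, 18.1 and 18.4 CPM in WT CB at a peak 409 bp past the start (log2 fold change -1.05, edgeR adjusted p = 0.000791). Nmd3, the export adaptor of the large subunit, had a log2 fold change of -0.87 in CB at 618 bp past the start (edgeR adjusted p = 0.00138), and Eif2b2, a subunit of the initiation factor exchange complex, -1.02 at 601 bp (0.00218). Mrpl47 fell in CB at 482 bp (-0.91, edgeR adjusted p = 0.00759) and in CC (-0.81, 0.0224), and Mrps25 in CB (-0.94, 0.00468) and CC (-0.83, 0.0150) at 194 bp, within the 250 bp counted as over the start.

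In CC, Rrp12, a pre-ribosome export factor, fell by 1.03 on the log2 scale (edgeR adjusted p = 0.00566), as did Eif2b2 by 1.04 (0.00549), Noc4l by 0.82 (0.00816) and the initiation factor subunit gene Eif3e by 0.64 (0.00906), the last also in CB by 0.61 (0.00587). On the other side no peak passed the test. The smallest p-values there were at the peaks of Fbl (log2 fold change 0.23), Utp3 (0.20), Mrpl21 (0.46), Mrpl54 (0.16), Eif2b5 (0.98) and Eif4b (0.25) in CB, and of Ncl (0.22), Utp3 (0.24), Mrpl58 (0.26), Mrpl1 (0.69), Pabpc1 (0.31) and Eif5 (0.17) in CC, with edgeR adjusted p between 0.121 and 0.409. Fau, a ribosomal protein made as a fusion with a ubiquitin-like protein, had log2 fold changes of 0.04 in CB and 0.00 in CC, and Rack1 is not analysed here.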

How the data were processed

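Omni-ATAC libraries of 4 groups of mouse germinal center B cells were taken as the authors deposited them, in a matrix of raw counts per peak. Per the submitters' processing notes, build mm10, BWA, FastQC, deepTools and R 4.2.1 were used, with no roles given. Not given in the sources used here are how peaks were called and counted and how duplicates, the Tn5 offset and multiply matching reads were treated. Groups and replicate numbers came from the labels.

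After TMM scaling, models were fitted in edgeR 4.0.16 (R 4.3.3), each group having its own mean and all 12 libraries sharing the spread, by robust quasi-likelihood F tests, two-sided. The filter filterByExpr removed 0 of 68689 peaks, so all 121 passed. Adjusted p-values are Benjamini-Hochberg over all peaks, and a peak was called at 0.05. The common biological coefficient of variation was 0.142. Log2 CPM used a prior count of 2. The SE of an edgeR fold change was derived as its absolute log2 value over the square root of the F statistic. The flank-to-start test used limma 3.58.1 over all pairs, and DESeq2 1.42.0 served as an alternative. Functions were tested on simulated data. Other software was data.table (1.17.8), Python 3.11.15, numpy 2.4.6, pandas 2.3.3 and scipy 1.17.1, and plots drawn with matplotlib 3.10.9.

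Gene spans, starts and promoter sequences came from RefSeq tables of GRCm38.p6, and 53 of the 73 genes with a peak had a promoter entry. No genome sequence was used, so sequences of the flanking peaks are not shown. Members, lists and tests were chosen with earlier results of these data known. Named peaks are those called, the 3 of smallest p per direction and contrast, the 5 highest and 5 lowest by level, the highest peak of listed genes (Rplp0, Rplp1, Rplp2, Rpsa, Rpl5, Rpl11, Rps19, Rps6, Rpl22, Rpl22l1, Rps27, Rps27l, Rpl3, Rpl3l, Rpl13a and Rps26), and for other lists the 2 of smallest p per direction. Some items that this rule names are not reported here, and counts include them.

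Depth was 93.6 to 664 counts per peak on average between libraries, which limits the precision most in the shallow ones. Same-numbered libraries of a genotype (CC with CB) had correlated deviations from their group means (r = 0.206 to 0.518 over 6 pairs, against -0.343 to 0.125 for 12 pairs of unlike number). Across genotypes the 12 same-numbered pairs had -0.0106 to 0.399, against -0.305 to 0.180 for 24 pairs of unlike number, so not every same-numbered pair was over 0.1.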

Additional observations from a re-analysis of the deposited data

How the results depend on the processing

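No called peak changed direction under any alternative. Settings moved the counts of called peaks in HOMO against WT, all lower unless said: 8 in CB and 6 in CC became 13 and 12 with DESeq2, 21 and 15 with limma-voom, 19 and 18 with the library total as a covariate, and 16 and 14 without both HOMO libraries numbered 1. Under these settings 11.2 and 8.57%, 17.4 and 10.5%, 18.5 and 13.2%, and 13.8 and 11% of gene ends, and 4.78 and 3.49%, 7.17 and 4.33%, 8.59 and 5.71%, and 5.80 and 4.66% of all peaks, were called lower in CB and CC. They were 3 and 2 within 500 bp of a gene end and 0 and 0 for the highest peak of each gene. CB had 3 with TMM on gene-end peaks, and CC 2 without both WT libraries numbered 2. With a replicate block, for HOMO against WT 1 per number and shared by both genotypes, the counts were 22 in CB and 18 in CC (1 higher). Of all peaks 13.2% and 10.4% were then called, and 20.5% and 15.3% of gene ends were called lower. Not every same-numbered pair across genotypes correlated over 0.1. Leaving out 1 library gave 0 to 12 in CB and 0 to 13 in CC.

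For CC against CB in HOMO, the 1 call became 0 with TMM on gene-end peaks, with library totals only, with a mean of at least 100 counts, without both HOMO libraries numbered 1 or both WT libraries numbered 2, within 500 bp and for the highest peaks, 2 with the covariate, 8 with the replicate block and 0 to 1 over the leave-one-out fits. In WT the 0 became 11 with the replicate block and 1 with the covariate, DESeq2 or without both HOMO libraries numbered 1, and 0 to 1 over the leave-one-out fits. For CC against CB the block was each number within a genotype.

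Median log2 fold changes with TMM on gene-end peaks became 0.0007 in CB, 0.014 in CC and 0.0069 for CC against CB in WT, the last also -0.0105 with library totals only and -0.0052 with at least 100 counts, against -0.0798. Leave-one-out ranges were -0.1251 to -0.0603 in CB, -0.0900 to -0.0440 in CC, 0.0115 to 0.1002 for the interaction, -0.0220 to 0.0061 for CC against CB in HOMO and -0.1224 to -0.0473 in WT. Called pairs ranged over 0 to 7 in CB and 2 to 8 in CC. Member shares became 0.792% (HOMO CB), 0.8004% (WT CB), 0.815% (HOMO CC) and 0.816% (WT CC) of gene-end counts. The cause of these moves, library depth included, was not tested. Leaving out both WT libraries numbered 2, the position classes, the pairs and the motifs were chosen after seeing the data.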
